A study of Mus musculus with 21 samples.

Results

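The genes described here make up the machinery that carries proteins into mitochondria and then folds, cuts or destroys them. They were chosen by name from the table of gene counts: protein-coding genes whose symbols begin with Tomm or Timm and a digit, and 18 named genes for chaperones, proteases, the processing peptidase and the disulfide relay. The rule found 42 genes of 47729 in the table and used no measured value. Of these 42 genes, 41 had enough counts for testing in the treatment experiment and 40 in the reporter experiment.

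Almost all mitochondrial proteins are made in the cytosol and have to cross one or both mitochondrial membranes. The TOM complex of the outer membrane receives them and the small TIM chaperones escort membrane proteins across the intermembrane space. The TIM22 complex inserts carrier proteins into the inner membrane, and the TIM23 complex with its motor pulls presequence proteins into the matrix, where the processing peptidase removes the presequence. Matrix chaperones of the heat shock families then fold the proteins, and proteases of the matrix and inner membrane remove those that fail. Induction of these chaperones and proteases is the classical readout of the mitochondrial unfolded protein response, and long-lived blood stem cells are known for keeping mitochondrial activity and protein synthesis low.

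RNA of haematopoietic stem cells (HSCs) sorted from mouse bone marrow as CD48- LSK CD150+ was sequenced in 21 libraries that fall into 7 groups of 3. The treatment experiment held Mx1-Cre; Atgfl/fl mice given bortezomib, Mx1-Cre; Atgfl/fl mice given DMSO, wild-type (WT) mice given bortezomib and WT mice given DMSO. Bortezomib is an inhibitor of the proteasome; mice received 10 mg/kg of it retro-orbitally at 48 h and again at 24 h before sorting, and controls received 10% DMSO at these times. In the reporter experiment, untreated mice carrying the autophagy reporter RFP-EGFP-LC3 gave RFP single positive, RFP GFP double positive and RFP GFP double negative HSCs. The titles call the Mx1-Cre; Atgfl/fl libraries Atg5-/-. Atg5 is needed to form autophagosomes, Mx1-Cre is a Cre transgene switched on by interferon that also acts outside the blood, and neither the induction of the Cre nor the age of the mice is given in the sources used here. Whether the WT mice carried the Cre is not given either. The labels do not say whether each library came from its own mouse, so p-values measure the spread between these libraries, which may be technical.

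Library totals ran from 15005500 to 31481691 counts, so 3 counts in a library correspond to between 0.0964 and 0.190 CPM (counts scaled to library depth, here on library sizes scaled by TMM, the trimmed mean of M-values). Atg5 itself was not lower in knockout-labelled libraries: it had 95.2, 95.4 and 142 CPM in bortezomib-treated and 114, 113 and 107 CPM in DMSO-treated knockout-labelled libraries, against 100.4, 72.1 and 135 CPM in bortezomib-treated and 55.0, 39.9 and 74.6 CPM in DMSO-treated WT libraries. In DMSO every knockout-labelled library was above every WT library, against the label (log2 fold change 0.98, adjusted p = 0.218), while under bortezomib the genotypes overlapped. Within WT HSCs, Atg5 was called higher after bortezomib in edgeR's quasi-likelihood test (log2 fold change 0.86, adjusted p = 0.0302). Gene counts that take in all of Atg5 say nothing about the loss of single exons, and the libraries are therefore called knockout-labelled. All 10 HSC markers examined had counts in each group. Replicate 3 of bortezomib-treated knockout-labelled HSCs, of bortezomib-treated WT HSCs and of DMSO-treated WT HSCs stood apart from the other replicates of their groups on the third principal component, and main counts are also given without these 3 libraries. Replicate 3 of DMSO-treated knockout-labelled HSCs was likewise lowest of its group there (-6.87, against 19.5 and 12.9), but it was kept in those counts. The share of Xist among Xist plus Ddx3y counts, which separates female from male RNA, was 0%, 3.51% and 100% in bortezomib-treated and 0.234% to 0.987% in DMSO-treated knockout-labelled libraries, against 31.8% to 90.3% in bortezomib-treated and 60.0% to 99.2% in DMSO-treated WT libraries. In the reporter experiment it was 88.1% to 99.9% in replicate 2 of each group and 0% to 10.2% in replicates 1 and 3. Bortezomib-treated WT replicates 1 and 2, at 46.4% and 31.8%, and DMSO-treated WT replicate 3, at 60.0%, held RNA of both sexes. Their RNA thus came from more than 1 mouse. In DMSO the share did not overlap between the genotypes, so sex and genotype cannot be told apart there.

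The 42 genes together took 0.368% to 0.457% of all counts in bortezomib-treated knockout-labelled libraries and 0.375% to 0.461% in DMSO-treated knockout-labelled libraries. They took 0.591% to 0.640% in bortezomib-treated WT libraries, which did not overlap the 0.450% to 0.471% of DMSO-treated WT libraries. Reporter libraries lay between 0.420% and 0.590%. Per kilobase of exon, the highest mean level over all 21 libraries was that of Timm8b, a small TIM (271 CPM per kb), then Tomm7, a small TOM subunit (244 CPM per kb), and Hspe1, the matrix co-chaperonin (164 CPM per kb). At the low end were Grpel2, an exchange factor of the import motor (7.40 CPM per kb), and Tomm40l, a relative of the outer membrane channel (4.10 CPM per kb). Tomm6 averaged 0.832 CPM and Tomm20l 0.363 CPM, the lowest levels among members with counts, and Timm8a2 had 0 counts in every library.

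For some members the counts could hold reads of other genes, since the strand setting of the counting is not given. If the counting left out reads on bases shared by genes, these members would instead lack such reads. By exon bases, 84.2% of Tomm6 lay under other genes, 64.3% of Tomm40l under Nr1i3 on the opposite strand, 43.7% of Htra2 under Loxl3 and Aup1, and 22.1% of Timm10b and 20.4% of Pmpca under neighbours. Timm8b shared 15.6% of its exon bases with Nkapd1 on the opposite strand. Hspe1 and Hspd1 stand head to head and shared 112 exon bases. Both are also known for processed pseudogenes, among which the counting could split reads, so their absolute levels are uncertain.

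Many of these genes rose together after bortezomib in WT HSCs, so promoters are shown for the members among the 8 smallest p-values of either bortezomib comparison whose window holds a motif of those in capitals. RefSeq windows (GRCm38.p6, 250 bases before to 50 after the start) matched 35 of the 42 genes, in 38 windows. Capitals mark a match on either strand to GCGCANGCG (NRF1), CCGGAAGT (the ETS factor GABPA), AAGATGGCG (YY1), TCAAGGTCA (ESRRA) or the heat shock factor HSF1 element, searched as GAA, TTC and GAA with 2 free bases between units. NRF1, GABPA and ESRRA are known activators of nuclear genes for mitochondria, and HSF1 of heat shock genes. The window of Hspe1, the matrix co-chaperonin, lies at chr1:55087898-55088197 on the plus strand and holds overlapping HSF1 matches, in the stretch it shares with Hspd1. Matches to NRF1 are in the windows of Chchd4, the disulfide relay enzyme (chr6:91473374-91473673, minus), Timm8b and Timm13, partners in a small TIM ring (chr9:50603651-50603950, plus, and chr10:80900920-80901219, minus), and Tomm20, a receptor (chr8:126945872-126946171, minus), and Timm8b also has an ESRRA match. The Tomm20 window also holds the antioxidant element TGACNNNGC of the factors NFE2L1 and NFE2L2, which is not in capitals. Timm23, the inner membrane channel (chr14:32201842-32202141, minus), has a GABPA match, and Timm50, its receptor (chr7:28311997-28312296, minus), a YY1 match just after the start.
Hspe1: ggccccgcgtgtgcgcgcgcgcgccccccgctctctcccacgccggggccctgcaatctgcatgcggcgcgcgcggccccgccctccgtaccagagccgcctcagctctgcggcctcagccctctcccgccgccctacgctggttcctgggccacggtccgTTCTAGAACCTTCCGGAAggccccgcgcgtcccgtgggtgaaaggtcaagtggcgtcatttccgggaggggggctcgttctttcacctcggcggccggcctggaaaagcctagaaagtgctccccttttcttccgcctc
Chchd4: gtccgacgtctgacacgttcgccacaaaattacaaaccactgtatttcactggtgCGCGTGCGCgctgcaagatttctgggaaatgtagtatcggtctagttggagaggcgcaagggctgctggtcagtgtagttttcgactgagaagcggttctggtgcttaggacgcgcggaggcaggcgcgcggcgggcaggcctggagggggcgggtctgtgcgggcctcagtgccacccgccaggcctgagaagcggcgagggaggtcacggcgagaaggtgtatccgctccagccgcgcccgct
Timm8b: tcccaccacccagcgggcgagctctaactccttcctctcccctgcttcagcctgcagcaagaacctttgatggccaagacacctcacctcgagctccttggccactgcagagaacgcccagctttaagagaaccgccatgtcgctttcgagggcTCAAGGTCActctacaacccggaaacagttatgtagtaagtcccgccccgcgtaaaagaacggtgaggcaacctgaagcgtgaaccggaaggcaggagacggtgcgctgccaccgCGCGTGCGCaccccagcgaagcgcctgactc
Timm13: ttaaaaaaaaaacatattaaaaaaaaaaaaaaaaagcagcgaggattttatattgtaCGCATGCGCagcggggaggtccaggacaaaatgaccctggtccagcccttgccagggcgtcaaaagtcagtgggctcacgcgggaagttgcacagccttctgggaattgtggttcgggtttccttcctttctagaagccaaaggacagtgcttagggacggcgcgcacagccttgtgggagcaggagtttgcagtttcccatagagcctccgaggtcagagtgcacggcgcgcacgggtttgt
Tomm20: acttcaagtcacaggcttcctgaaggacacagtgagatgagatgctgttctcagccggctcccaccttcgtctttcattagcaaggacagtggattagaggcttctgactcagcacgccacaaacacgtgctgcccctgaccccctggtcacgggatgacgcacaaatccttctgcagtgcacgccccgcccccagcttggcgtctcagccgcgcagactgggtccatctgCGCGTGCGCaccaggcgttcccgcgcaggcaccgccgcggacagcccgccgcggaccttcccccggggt
Timm23: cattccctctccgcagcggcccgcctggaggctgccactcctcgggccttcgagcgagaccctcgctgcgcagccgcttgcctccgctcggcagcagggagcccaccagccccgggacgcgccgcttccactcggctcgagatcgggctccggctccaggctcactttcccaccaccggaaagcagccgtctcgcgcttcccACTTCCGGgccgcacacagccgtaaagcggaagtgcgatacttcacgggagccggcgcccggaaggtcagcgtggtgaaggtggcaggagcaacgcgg
Timm50: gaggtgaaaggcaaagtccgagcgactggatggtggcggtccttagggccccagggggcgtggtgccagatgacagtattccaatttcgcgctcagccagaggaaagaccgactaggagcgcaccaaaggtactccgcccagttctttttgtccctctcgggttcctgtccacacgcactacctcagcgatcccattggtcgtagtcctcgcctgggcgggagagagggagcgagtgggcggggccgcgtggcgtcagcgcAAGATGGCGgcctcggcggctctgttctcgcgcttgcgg

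**Figure D1:**
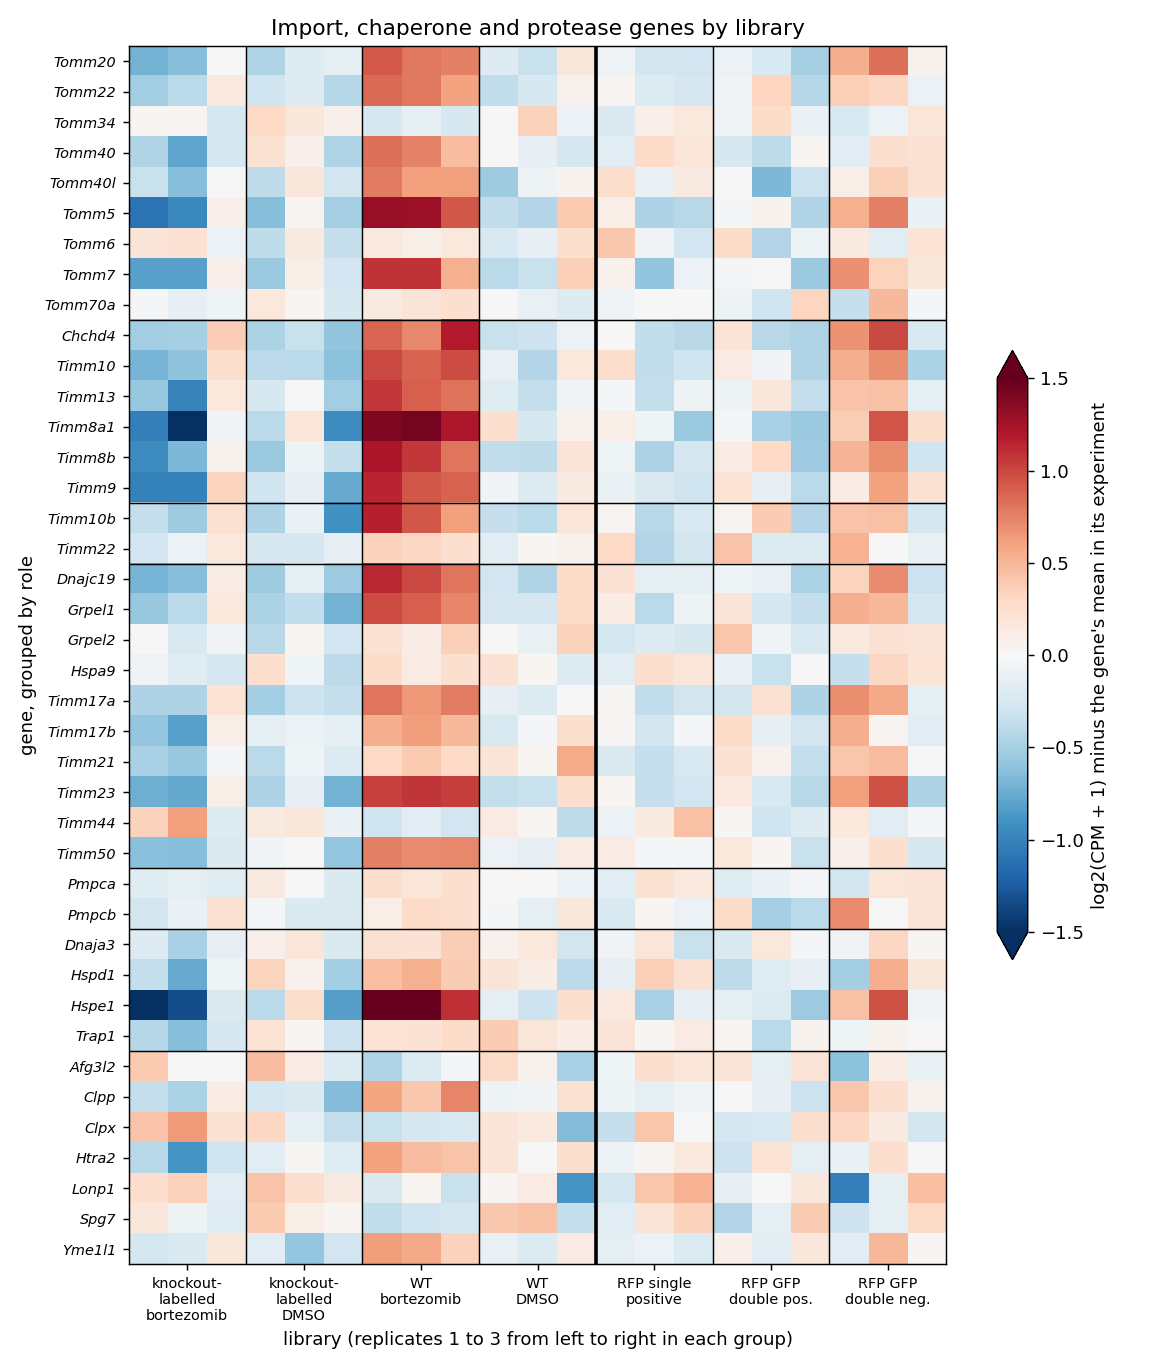
Levels of the 40 members tested in both experiments, with genes in rows grouped by role and the 21 libraries in columns. Colour gives log2(CPM + 1) minus the gene's mean over the 12 treatment or the 9 reporter libraries, and the bortezomib-treated WT libraries are highest for most TOM, small TIM and TIM23 genes.

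The first comparison asks what proteasome inhibition did to these transcripts in WT HSCs. Of the 41 genes tested, 20 rose and 0 fell after bortezomib in WT, whereas over all 16149 genes tested 7.97% were called higher and 7.56% lower. Calls here and throughout are at an adjusted p under 0.05 in edgeR's quasi-likelihood test with Benjamini-Hochberg adjustment over all genes tested. The median log2 fold change of the members was 0.58, against -0.04 over all genes, and 36 of 41 members had a positive value. By role, 6 of 10 TOM genes, 6 of 6 tested small TIM and relay genes, 1 of 2 TIM22 genes and 5 of 10 TIM23 and motor genes were called higher, while 0 of 2 processing peptidase genes, 1 of 4 matrix chaperones and 1 of 7 proteases were.

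Among the receptors of the outer membrane, Tomm22, the central receptor that also holds the TOM complex together, had 302, 290 and 254 CPM in bortezomib-treated WT libraries, against 129, 142 and 175 CPM in DMSO-treated WT libraries. Every bortezomib library was above every DMSO library, and the log2 fold change was 0.92 (SE 0.19, adjusted p = 0.00654). Tomm20, the receptor that recognises presequences, had 248, 226 and 219 CPM in bortezomib-treated WT libraries, against 114, 103 and 147 CPM in DMSO-treated WT libraries. The groups were again separate, with a log2 fold change of 0.93 (SE 0.20, adjusted p = 0.00837). Tomm40, the channel, averaged 178 CPM after bortezomib against 101 CPM in DMSO (fold 1.76), and its relative Tomm40l averaged 31.9 against 17.4 CPM (fold 1.83). The small subunits Tomm5 and Tomm7, which stabilise the channel, averaged 256 against 106 CPM (fold 2.41) and 463 against 229.7 CPM (fold 2.01). Tomm70a, the receptor for carrier proteins that arrive with cytosolic chaperones, was not called (log2 fold change 0.30, adjusted p = 0.174), although its groups did not overlap. The cytosolic factor Tomm34 was not called either (log2 fold change -0.30, adjusted p = 0.21).

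All 6 tested genes of the intermembrane space step rose. Chchd4, the oxidoreductase that traps small cysteine-rich proteins by forming disulfide bonds, had 208, 186 and 259.7 CPM in bortezomib-treated WT libraries, against 89.5, 90.5 and 107 CPM in DMSO-treated WT libraries. It had the smallest p of the 41 genes, with a log2 fold change of 1.19 (SE 0.22, adjusted p = 0.00474) and no overlap between the groups. Timm8b, of the Tim8 family that pairs with Timm13 in a ring-shaped chaperone, had 295, 264 and 221 CPM in bortezomib-treated WT libraries, against 97.3, 96.8 and 145 CPM in DMSO-treated WT libraries. Its partner Timm13 had 270.4, 240.4 and 227 CPM in bortezomib-treated WT libraries, against 113, 101 and 124 CPM in DMSO-treated WT libraries. Both partners were separate between the groups, with log2 fold changes of 1.20 (SE 0.25, adjusted p = 0.00676) for Timm8b and 1.12 (SE 0.24, adjusted p = 0.0082) for Timm13. Timm9 and Timm10, which form the other ring, averaged 80.9 against 39.4 CPM (fold 2.05) and 98.1 against 46.4 CPM (fold 2.11). Timm8a1, whose human counterpart is mutated in a deafness and dystonia syndrome, averaged 32.3 against 12.4 CPM (log2 fold change 1.38).

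In the inner membrane, Timm10b, the small TIM docked on the TIM22 complex, averaged 113 CPM after bortezomib against 52.8 CPM in DMSO-treated WT libraries (fold 2.15). Timm22, the insertase itself, was not called (log2 fold change 0.33, adjusted p = 0.161). Timm23, the channel subunit of the presequence translocase, had 133, 138 and 134 CPM in bortezomib-treated WT libraries, against 50.4, 51.3 and 77.0 CPM in DMSO-treated WT libraries. These groups did not overlap, with a log2 fold change of 1.18 (SE 0.24, adjusted p = 0.00732). Timm17a, its partner in the channel, had 165, 148 and 161 CPM in bortezomib-treated WT libraries, against 86.6, 81.6 and 93.8 CPM in DMSO-treated WT libraries. The groups were separate and the log2 fold change was 0.85 (SE 0.18, adjusted p = 0.00835), whereas the paralogue Timm17b was not called (log2 fold change 0.55, adjusted p = 0.0814). Dnajc19, a J-protein of the inner membrane related to the motor's co-chaperones, had 209, 188 and 165 CPM in bortezomib-treated WT libraries, against 77.5, 68.7 and 115 CPM in DMSO-treated WT libraries. It too was separate between the groups, with a log2 fold change of 1.11 (SE 0.24, adjusted p = 0.00841).

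Timm50, the receptor of the TIM23 complex, averaged 222 CPM after bortezomib against 131 CPM (fold 1.69), and Grpel1, the nucleotide exchange factor of the motor, 243 against 127 CPM (fold 1.91). Not called among the motor genes were Hspa9, the mitochondrial Hsp70 that drives import (log2 fold change 0.19, adjusted p = 0.50), and Timm44, Timm21 and Grpel2, with log2 fold changes between -0.19 and 0.15. The peptidase subunits Pmpca and Pmpcb had log2 fold changes of 0.26 and 0.21 and were not called. Of the matrix chaperones, Hspe1 averaged 543 CPM after bortezomib against 193 CPM in DMSO-treated WT libraries (fold 2.82, adjusted p = 0.00872), the largest fold among the called members. Its partner Hspd1, the chaperonin barrel, was not called (log2 fold change 0.46, adjusted p = 0.176), nor were Dnaja3, a J-protein (0.28), and Trap1, the mitochondrial Hsp90 (0.00). Yme1l1, the inner membrane protease facing the intermembrane space, averaged 201 against 135 CPM (fold 1.49). The other 6 proteases were not called: the log2 fold change was 0.54 for Clpp, the matrix peptidase, 0.36 for Htra2 of the intermembrane space, 0.02 for Lonp1, the main matrix protease, and -0.21, -0.21 and -0.52 for the unfoldase Clpx and the inner membrane protease subunits Afg3l2 and Spg7.

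Markers of other cell types moved beside this comparison. The summed level of the 10 HSC markers was 1715 to 2097 CPM in bortezomib-treated WT libraries, against 2923 to 3218 CPM in DMSO-treated WT libraries. The 7 erythroid markers summed to 195 to 225 CPM against 72.0 to 97.4 CPM, and the 7 T and NK cell markers to 148 to 219 CPM against 87.0 to 92.7 CPM, with Cd3e, Cd3g and Cd8a at 0 in both groups. The 7 endothelial and stromal markers summed to 37.8 to 62.7 CPM against 73.2 to 96.6 CPM, with Cdh5 at 0 in both groups and Col1a1 at 0 after bortezomib only. Their part in the result was not tested, and in RNA of many cells fewer cells of a type and less RNA per cell cannot be told apart. The number called rested on single libraries: 5 members were called without replicate 2 of the DMSO-treated WT group (4.32% of all genes tested), 12 without its replicate 1 (5.80%) and 10 without replicate 1 of the bortezomib-treated WT group (3.47%). The median log2 fold change stayed between 0.52 and 0.68 when any 1 library was left out, and 23 members were called higher and 1 lower without the 3 libraries apart, where 24.1% of all genes tested were called. Chchd4, Tomm22, Timm8b, Timm23 and Timm13 were called under all 15 alternatives run for this comparison.

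**Figure D2:**
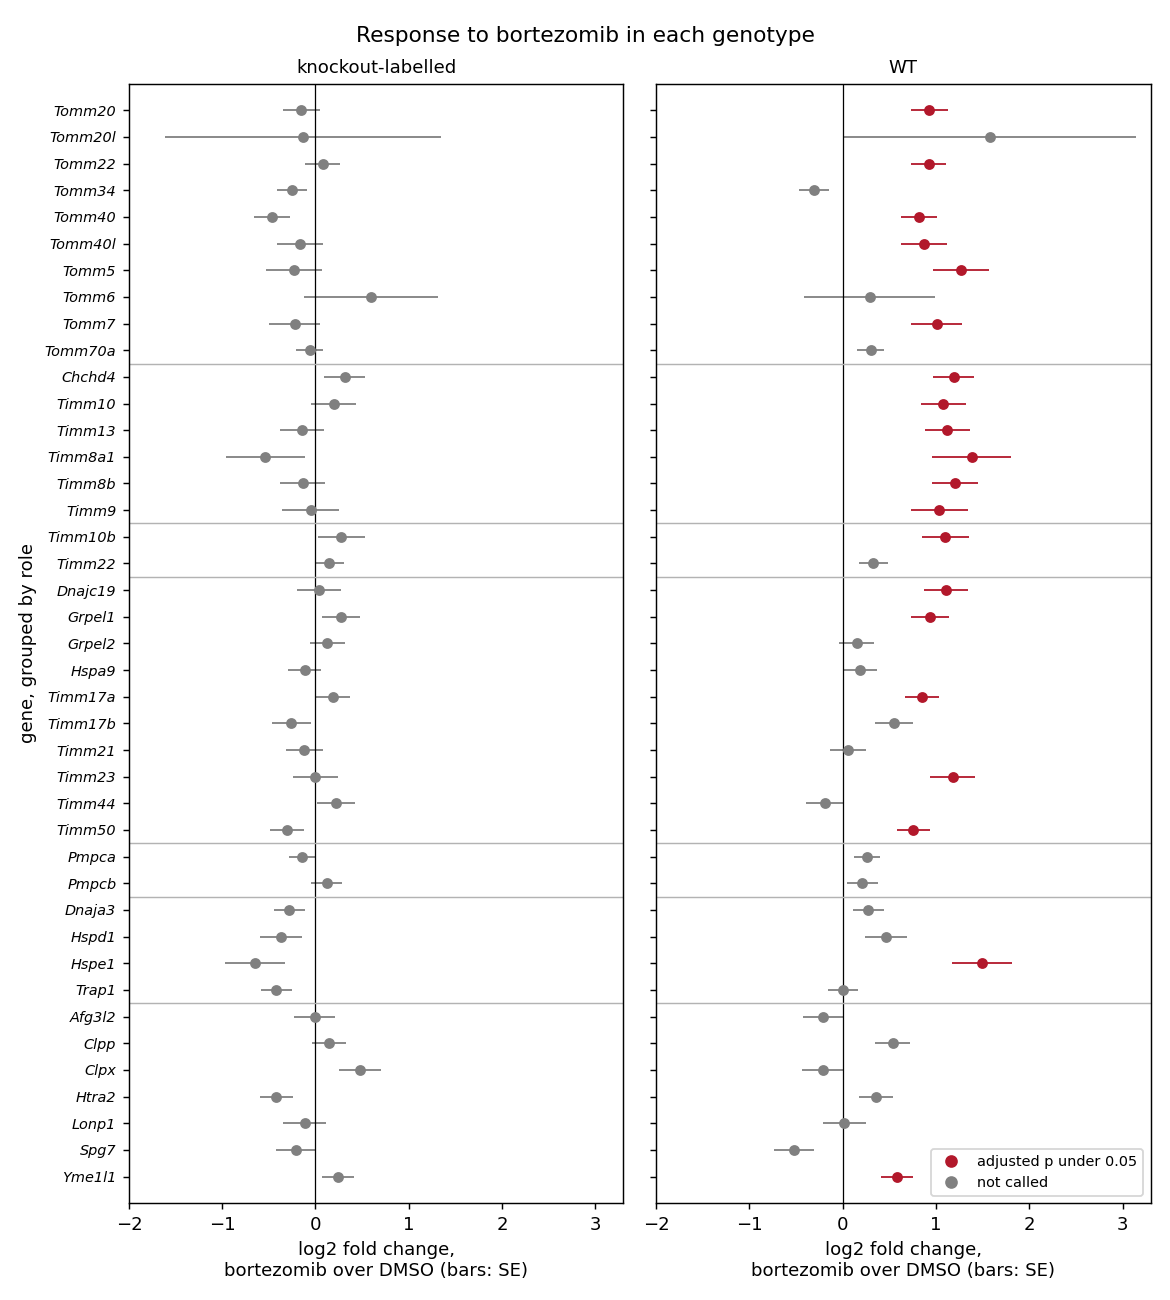
Log2 fold change of bortezomib over DMSO for the 41 members tested, in knockout-labelled HSCs (left) and WT HSCs (right), with bars of 1 SE and genes grouped by role. In WT HSCs 20 members were called higher, while in knockout-labelled HSCs 0 were called and the points lie on both sides of 0.

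In knockout-labelled HSCs, 0 of 41 members were called after bortezomib in edgeR's test, where 2.02% of all genes tested were called higher and 1.61% lower. Unadjusted p-values were under 0.05 for 4 members and for 2691 of the 16149 genes tested, DESeq2 called 0 (7.67% of all genes) and limma voom with quality weights 3 (9.77%). The median log2 fold change was -0.12, against 0.00 over all genes, and 15 members were positive and 26 negative. Trap1 had the smallest p, with 134, 116 and 152 CPM in bortezomib-treated knockout-labelled libraries, against 208, 184 and 145 CPM in DMSO-treated knockout-labelled libraries. The groups overlapped and the log2 fold change was -0.42 (SE 0.17, adjusted p = 0.197). Tomm40 came next, with 79.97, 63.1 and 91.1 CPM in bortezomib-treated knockout-labelled libraries, against 129, 116 and 79.9 CPM in DMSO-treated knockout-labelled libraries. Here replicate 3 of the DMSO group lay within the range of the bortezomib group, and the log2 fold change was -0.47 (SE 0.19, adjusted p = 0.222). For the small TIM and relay genes the log2 fold changes lay between -0.54 and 0.32, and for the 4 matrix chaperones between -0.65 and -0.28. Replicate 3 of the bortezomib-treated knockout-labelled group was above replicates 1 and 2 for Hspe1, Tomm20, Timm8b, Timm23, Timm13 and Chchd4 among others. Without the 3 libraries apart, 6 members were called lower and 1 higher, and 11.6% of all genes tested were called.

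The comparison of genotypes under bortezomib showed the members lower in knockout-labelled HSCs. Of 41 members, 28 were called lower and 1 higher, where 15.3% of all genes tested were called lower and 17.2% higher. Their median log2 fold change was -0.94, against 0.08 over all genes. Lower calls came from 6 of 10 TOM genes, 6 of 6 tested small TIM and relay genes, 1 of 2 TIM22 genes, 7 of 10 TIM23 and motor genes, 1 of 2 peptidase genes, 4 of 4 matrix chaperones and 3 of 7 proteases. This comparison shares its bortezomib-treated WT libraries with the comparison above. The summed HSC markers were at 2466 to 2781 CPM in bortezomib-treated knockout-labelled libraries, against 1715 to 2097 CPM in bortezomib-treated WT libraries, and the erythroid markers at 54.5 to 80.01 CPM against 195 to 225 CPM. The T and NK cell markers summed to 49.5 to 129 CPM against 148 to 219 CPM, with Cd3e, Cd3g and Cd8a at 0 in both groups, and the endothelial and stromal markers to 93.2 to 110.1 CPM against 37.8 to 62.7 CPM. Their part in the result was not tested.

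Hspe1 had 69.4, 79.4 and 172 CPM in bortezomib-treated knockout-labelled libraries, against 609, 593 and 428 CPM in bortezomib-treated WT libraries. The lowest WT library was above the highest knockout-labelled library, and the log2 fold change was -2.34 (SE 0.33, adjusted p = 0.000221). Timm50 had 85.9, 85.2 and 114 CPM in bortezomib-treated knockout-labelled libraries, against 225, 219 and 219.9 CPM in bortezomib-treated WT libraries. The WT libraries lay within a narrow range well above the others, with a log2 fold change of -1.22 (SE 0.18, adjusted p = 0.000262). Tomm40, at the 79.97, 63.1 and 91.1 CPM already given for bortezomib-treated knockout-labelled libraries, compared with 196, 185 and 152 CPM in bortezomib-treated WT libraries. The groups did not overlap, with a log2 fold change of -1.19 (SE 0.20, adjusted p = 0.000478). Tomm5 had 51.8, 57.0 and 118 CPM in bortezomib-treated knockout-labelled libraries, against 279.5, 274 and 215 CPM in bortezomib-treated WT libraries. Again every knockout-labelled library was below every WT library, with a log2 fold change of -1.76 (SE 0.31, adjusted p = 0.000661).

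Tomm20 had 79.2, 83.4 and 130.5 CPM in bortezomib-treated knockout-labelled libraries, below the 219 to 248 CPM of bortezomib-treated WT libraries. Timm8b had 65.3, 78.7 and 132 CPM in bortezomib-treated knockout-labelled libraries, below the 221 to 295 CPM of bortezomib-treated WT libraries. Timm23 had 38.6, 37.6 and 68.9 CPM in bortezomib-treated knockout-labelled libraries, below the 133 to 138 CPM of bortezomib-treated WT libraries. These 3 genes, a receptor, an escort and a channel subunit, were thus separate between the genotypes. Their log2 fold changes were -1.24 (SE 0.20, adjusted p = 0.000427), -1.50 (SE 0.25, adjusted p = 0.000478) and -1.48 (SE 0.25, adjusted p = 0.000512). Htra2, a serine protease of the intermembrane space, shares exon bases with other genes, so its counts may be too high or too low. It had 40.6, 29.0 and 44.1 CPM in bortezomib-treated knockout-labelled libraries, against 83.6, 75.8 and 74.0 CPM in bortezomib-treated WT libraries. It was separate too, with a log2 fold change of -1.04 (SE 0.18, adjusted p = 0.000663).

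**Figure D3:**
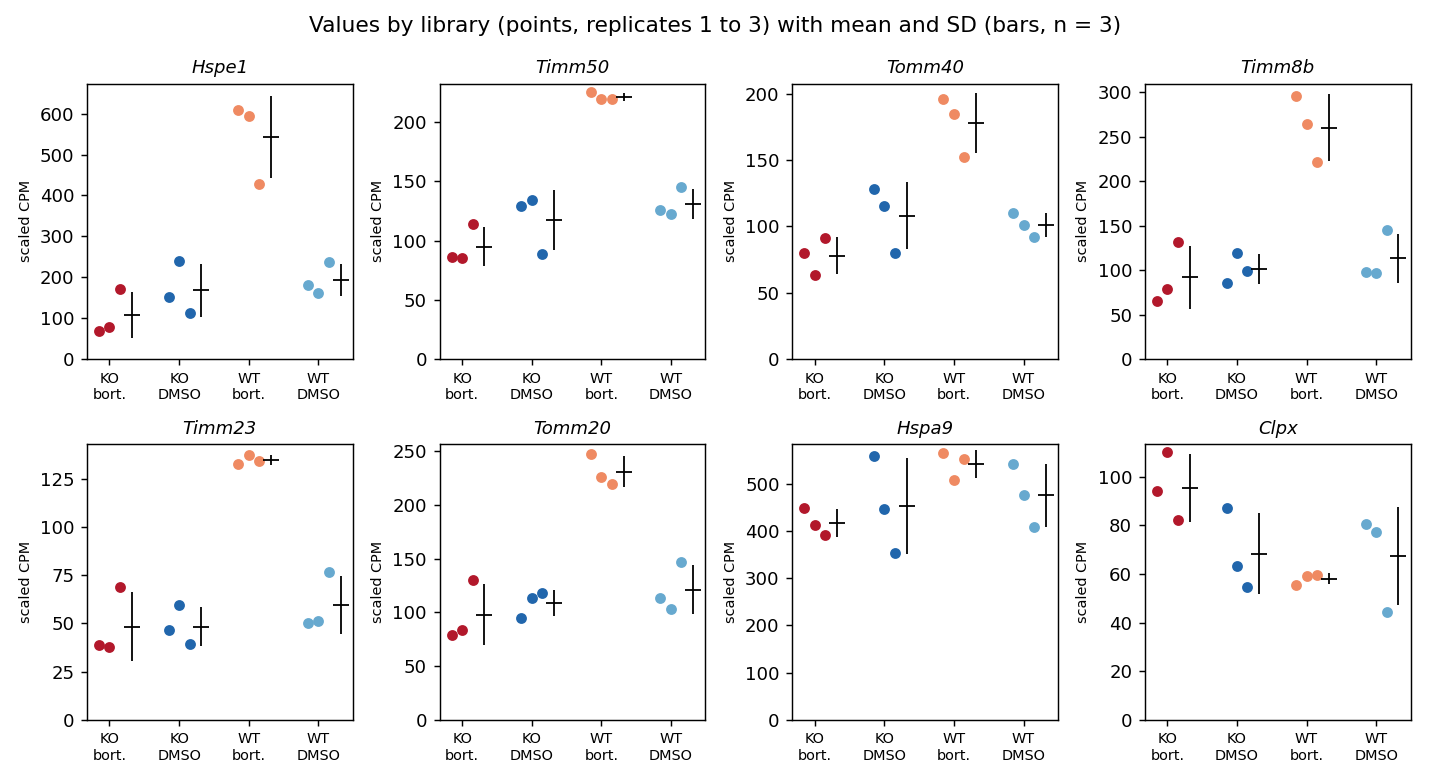
Scaled CPM of 8 members in each treatment library (points, replicates 1 to 3 from left to right) with the mean and SD of the 3 libraries (bars) for knockout-labelled (KO) bortezomib, KO DMSO, WT bortezomib and WT DMSO. For Hspe1, Timm50, Tomm40, Timm8b, Timm23 and Tomm20 the 3 bortezomib-treated WT libraries lie above all others, while Hspa9 overlaps between treatments and Clpx is highest on average in the bortezomib-treated knockout-labelled group.

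Among the other members called lower under bortezomib, Timm8a1 averaged 6.49 CPM in knockout-labelled against 32.3 CPM in WT libraries (fold 0.202), Timm9 29.9 against 80.9 CPM (fold 0.37), Timm13 98.3 against 246 CPM (fold 0.40), Timm10 41.3 against 98.1 CPM (fold 0.421) and Chchd4 101 against 218 CPM (fold 0.466). In the outer membrane Tomm7, Tomm22 and Tomm40l had folds of 0.385, 0.505 and 0.495. In the inner membrane Dnajc19, Grpel1, Timm10b, Timm17a, Timm17b and Timm21 had folds between 0.392 and 0.627. The chaperones Hspd1, Trap1 and Dnaja3 averaged 195 against 344 CPM (fold 0.567), 134 against 212 CPM (fold 0.631) and 121 against 174 CPM (fold 0.693). Pmpca, the larger peptidase subunit, averaged 124 against 164 CPM (fold 0.757), and the proteases Clpp and Yme1l1 averaged 85.4 against 149.6 CPM (fold 0.571) and 132 against 201 CPM (fold 0.654).

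One member went the other way. Clpx, the unfoldase that feeds proteins to Clpp, had 94.3, 110.1 and 82.2 CPM in bortezomib-treated knockout-labelled libraries, against 55.5, 59.3 and 59.5 CPM in bortezomib-treated WT libraries. The groups did not overlap (log2 fold change 0.72, SE 0.23, adjusted p = 0.0244), so the 2 subunits of the ClpXP protease were called in opposite directions. The 12 members not called had log2 fold changes between -0.38 for Hspa9 and 0.54 for Timm44, among them the proteases Lonp1, Afg3l2 and Spg7 at 0.33, 0.36 and 0.29. Of the 29 called members, 23 were called under all 15 alternatives run for this comparison, and without the 3 libraries apart 30 members were called lower and 2 higher, where 39.3% of all genes tested were called. The call of Clpx was lost without replicate 1 or 2 of the bortezomib-treated knockout-labelled group and without any 1 of the bortezomib-treated WT libraries.

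The difference between the genotypes in their response to bortezomib was tested as an interaction, the log2 fold change in knockout-labelled minus that in WT HSCs. It was called for 8 members, all negative, where 4.71% of all genes tested were called negative and 4.35% positive, and its median over members was -0.78 against 0.06 over all genes. Hspe1 had the largest called interaction (-2.14, SE 0.45, adjusted p = 0.0132), with log2 fold changes of -0.65 in knockout-labelled and 1.49 in WT HSCs. In DMSO, Hspe1 had 151, 239.9 and 113 CPM in knockout-labelled libraries and 181, 161 and 237 CPM in WT libraries, which overlapped. The other 7 were 3 TOM genes, Tomm40 (-1.29), Tomm20 (-1.08) and Tomm5 (-1.50), the pair Timm8b (-1.34) and Timm13 (-1.27), and the TIM23 genes Timm23 (-1.18) and Timm50 (-1.06). Adjusted p-values of these 7 lay between 0.0136 and 0.0438. With the Xist share as a covariate 0 members were called in the interaction, where 276 genes (1.71%) were called over all, and the median was -0.53. In DMSO that share did not overlap between the genotypes, so the covariate cannot separate sex from genotype there. The count ran from 2 to 22 when 1 library was left out. It was 2 without replicate 1 or 2 of the DMSO-treated WT or of the bortezomib-treated knockout-labelled group. Leaving out replicate 1 of the bortezomib-treated WT or replicate 2 of the DMSO-treated knockout-labelled group also gave 2. In the settings with 2 members called, 2.07% to 4.52% of all genes tested were called. Without replicate 3 of the bortezomib-treated knockout-labelled group the count was 22, where 16.7% of all genes tested were called. It was 3 without replicate 2 of the bortezomib-treated WT group (4.01%) and 4 without replicate 1 of the DMSO-treated knockout-labelled group (3.62%). Without the 3 libraries apart 24 members were called negative and 2 positive, where 24.5% of all genes tested were called.

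Between the genotypes in DMSO, 0 members were called, as were 0% of all genes tested by edgeR. DESeq2 also called 0 members, where it called 0.972% of all genes, and unadjusted p-values were under 0.05 for 3 members and for 1454 genes in all. The members' median log2 fold change was -0.16, against 0.00 over all genes. It depended on the setting: it was -0.42 with the Xist share as a covariate, -0.04 with limma voom, -0.06 without the 3 libraries apart and -0.08 with length and GC offsets. Leaving out 1 library gave -0.07 without replicate 3, -0.24 without replicate 1 and -0.26 without replicate 2 of the DMSO-treated WT group. Timm21, which links the TIM23 complex to the respiratory chain, had 42.5, 53.7 and 48.7 CPM in DMSO-treated knockout-labelled libraries, against 64.4, 57.4 and 83.1 CPM in DMSO-treated WT libraries. Its groups were separate, but the log2 fold change of -0.50 (SE 0.19) had an adjusted p of 0.465. Grpel1 had 94.4, 102 and 80.4 CPM in DMSO-treated knockout-labelled libraries, against 111, 110.3 and 159 CPM in DMSO-treated WT libraries. These groups were also separate, with a log2 fold change of -0.46 (SE 0.20, adjusted p = 0.519).

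The reporter experiment asks whether HSCs that differ in their autophagy signal differ in these genes. In edgeR's test 0 of 40 members were called between single positive and double positive HSCs (0% of all genes tested), 0 between single positive and double negative HSCs (0% of all genes tested), and 0 between double positive and double negative HSCs (0.0065% of all genes tested). DESeq2 called 0 members in each, where it called 0.013%, 0.124% and 0.306% of all genes in the same order. Unadjusted p-values were under 0.05 for 0, 11 and 8 members, and for 209, 1160 and 1315 of the 15375 genes tested. The members' median log2 fold changes were 0.03, -0.30 and -0.31, against 0.00, 0.02 and 0.02 over all genes. With length and GC offsets the median of single positive against double negative HSCs was -0.18, and over all genes the fold changes of this comparison had a Spearman rho of 0.38 with transcript length. Against double negative HSCs, 30 of 40 members had a negative value in single positive and 36 of 40 in double positive HSCs. The 2 comparisons with double negative HSCs share those 3 libraries. T and NK cell markers summed to 76.5 to 131 CPM in single positive, 76.8 to 98.7 CPM in double positive and 140 to 203 CPM in double negative libraries, with Cd3e, Cd3g and Cd8a at 0 in each, and their part was not tested.

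Tomm20 had 116, 99.5 and 98.7 CPM in single positive, 113, 103 and 84.8 CPM in double positive and 175, 214 and 125 CPM in double negative libraries. The double negative libraries were above all others, with log2 fold changes of -0.71 (SE 0.22, adjusted p = 0.651) for single positive and -0.78 (SE 0.22, adjusted p = 0.555) for double positive HSCs against them. Chchd4 had 119, 92.0 and 88.7 CPM in single positive and 137, 89.1 and 86.7 CPM in double positive libraries, against 191, 236 and 102 CPM in double negative libraries. Replicate 3 of the double negative group lay within the range of the other groups. Hspe1 had 241, 155 and 198 CPM in single positive and 196, 188 and 149 CPM in double positive libraries, against 295, 423 and 208 CPM in double negative libraries. Its double negative mean was highest, although replicate 3 of that group lay within the single positive range. Between single positive and double positive HSCs the smallest p-values belonged to Hspd1 (200.2, 279.7 and 256 against 168, 192 and 200.5 CPM) and Tomm40l (25.5, 19.6 and 23.2 against 21.1, 12.8 and 16.7 CPM). Replicate 1 of the single positive group lay within the double positive range for Hspd1, while for Tomm40l replicate 2 did.

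Transcript length moved with the fold changes after bortezomib in WT HSCs, over members as over all genes. In WT HSCs, bortezomib over DMSO, the 6 members with a longest annotated transcript under 1000 bases had a median log2 fold change of 1.24, and the 9 members of 4000 bases or more one of 0.30. Over all genes the same length classes had medians of 0.41 and -0.23. Across the 41 members, which share their libraries, Spearman's rho of log2 fold change with length was -0.44, and over 16091 genes it was -0.25. With offsets for length and GC content fitted in each library, rho was -0.16 over the members and -0.04 over all genes. In that fit 21 members were called higher, where 16.5% of all genes tested were called, and the members' median log2 fold change was 0.65. In knockout-labelled HSCs rho was 0.29 over the members and -0.05 over all genes, and 0.46 and 0.02 with the offsets. Between the genotypes under bortezomib these offsets gave 29 members lower and 1 higher, where 30.4% of all genes tested were called. The members' median log2 fold change there was -0.75. Hspe1 had a log2 fold change of 1.20 in WT with the offsets, against 1.49 without them, and Tomm20, with a long transcript, 1.03 against 0.93.

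**Figure D4:**
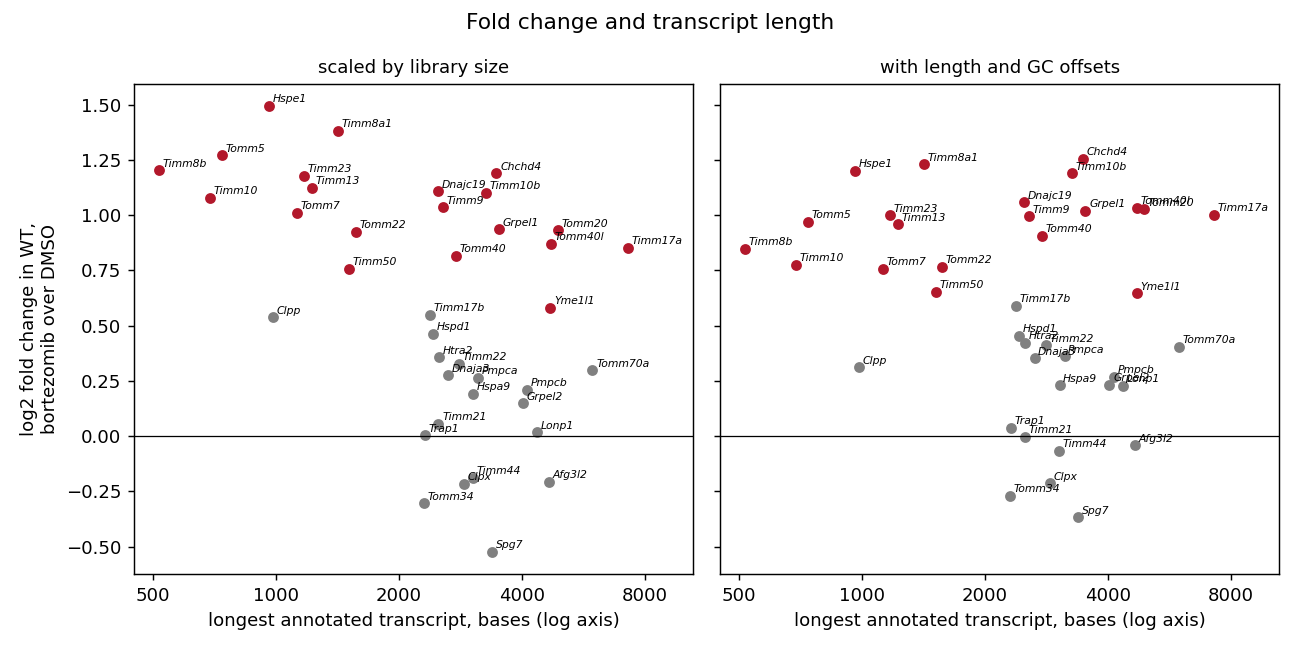
Log2 fold change of bortezomib over DMSO in WT HSCs against the length of the longest annotated transcript (log axis) for 39 members, without Tomm6 and Tomm20l, scaled by library size (left) and with offsets for length and GC content (right). Red points are the 20 members called higher in the fit scaled by library size, which remain above the other members on the right while the slope with length is smaller.

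Other genes of the pathway were described from lists, whose counts after bortezomib in WT HSCs stand beside the 7.97% of all genes called higher and 7.56% called lower. After bortezomib in WT HSCs, 6 of 17 tested genes for other import and processing steps rose and 0 fell, with a median log2 fold change of 0.58. Mtch2, an outer membrane insertase in human cells, averaged 467 against 212 CPM (log2 fold change 1.14), Dnajc15, a motor J-protein, 302 against 113 CPM (1.42) and Romo1, an inner membrane protein related to a yeast TIM23 subunit, 315 against 151 CPM (1.06). Of 18 tested genes for other mitochondrial quality control, 6 rose and 0 fell. Phb2 and Stoml2, scaffold proteins around inner membrane proteases, averaged 445 against 229 CPM (0.96) and 279.8 against 142 CPM (0.98), and Chchd10, an intermembrane space protein, 68.6 against 38.2 CPM (0.85).

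The lists for signalling moved in both directions in WT HSCs. Of 12 tested genes of mitochondrial stress signalling, 2 rose and 3 fell after bortezomib. Ddit3, which encodes the stress factor CHOP, had 5.80, 6.26 and 6.46 CPM in bortezomib-treated WT libraries, against 23.3, 18.5 and 11.4 CPM in DMSO-treated WT libraries (log2 fold change -1.52). Trib3, a target of the same pathway, averaged 20.5 against 47.4 CPM (-1.21), while Asns, the asparagine synthetase also known as an Atf4 target, averaged 122.8 against 60.4 CPM (1.02). Of 14 biogenesis regulators 2 rose and 1 fell: Esrra, a nuclear receptor for mitochondrial genes, averaged 17.2 against 8.17 CPM (1.08), Pprc1, a coactivator, 102 against 60.2 CPM (0.76), and Ppargc1a, the best known coactivator of mitochondrial genes, 0.806 against 4.09 CPM (-2.34). Of 13 cytosolic chaperones that hand over precursors, 1 rose and 0 fell, a share near that over all genes: this was the constitutive Hsp70 gene Hspa8, which averaged 1329 against 778 CPM (0.77).

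In knockout-labelled HSCs the lists had 1 call after bortezomib, Chchd10, which fell to an average of 23.2 CPM, against 38.9 CPM in DMSO (log2 fold change -0.74, adjusted p = 0.0424). Between genotypes under bortezomib, where 15.3% of all genes were called lower and 17.2% higher, 9 of 17 other import genes were called lower and 0 higher, 8 of 18 quality control genes lower and 1 higher, 3 of 14 biogenesis regulators lower and 0 higher, and 2 of 13 cytosolic chaperones lower and 0 higher, the last 2 lists being near the share over all genes. Mtch2, Dnajc15 and Mipep, the intermediate peptidase, had log2 fold changes of -1.34, -1.65 and -1.61, and Phb2, Chchd10 and Phb -1.39, -1.56 and -1.60. Tfam, which packages mitochondrial DNA, averaged 105 CPM in knockout-labelled against 173 CPM in WT libraries (-0.72), with Tfb1m and Pprc1 at -1.08 and -0.66, and Stip1 and Hsp90aa1 were at -0.71 and -0.51. Stress signalling again split, with 4 of 12 higher and 3 lower: Asns and Mthfd2, a mitochondrial folate enzyme, were at -1.41 and -1.93, and Ddit3 was at 1.62. The interaction, called negative for 4.71% and positive for 4.35% of all genes, was called for 5 other import genes, 4 quality control genes and 1 biogenesis regulator, Pprc1 (-1.22), all negative, and for 1 stress gene in each direction, Ddit3 (2.01) and Mthfd2 (-2.32). In DMSO between genotypes, and between reporter groups, 0 genes of these 5 lists were called.

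The motifs of the promoters shown earlier were counted in all windows. NRF1 matches were in 21.1% of the 38 member windows and in 6.25% of all 32851 windows, GABPA matches in 15.8% and 3.89%, YY1 matches in 2.63% and 1.40%, and ESRRA matches in 2.63% and 0.42%. HSF1 matches were in 7.89% of member windows, those of Hspe1, Hspd1 and Timm9, and in 0.60% of all windows, with the Hspe1 and Hspd1 windows overlapping. The ATF4 and CHOP element TGATGNAA was in 0% and 3.97%, and the antioxidant element in 5.26%, the windows of Tomm20 and Lonp1, and 12.4%. Within the members, NRF1 matches were in 4 of 18 genes called higher in WT and in 4 of 17 others with a window, and GABPA matches in 3 of each. A match says only that these letters are in the window.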

How the data were processed

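The authors deposited raw counts per gene, with 0 columns that had no sample. Per the labels' protocols, RNA was extracted with RNeasy Plus Micro columns and made into SMART-seq2 libraries. The submitters' processing notes name Bowtie 1.0.0, STAR 2.6.1 and HTSeq 0.7.1 and the builds GRCm38.p4 and GRCh38, without their roles. Coordinates and exon overlaps are from the GENCODE annotation of GRCm38.

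The deposited counts were fitted in R 4.3.3 with edgeR 4.0.16, with filterByExpr, TMM scaling and 1 quasi-likelihood fit per experiment (12 and 9 libraries) with a mean per group. p-values were adjusted by Benjamini-Hochberg over all genes tested and called under 0.05. CPM are deposited counts divided by TMM-scaled library sizes. DESeq2 1.42.0, limma 3.58.1, other scaling, no filter, fewer libraries, covariates, length and GC offsets and leaving out each library were alternatives. The main results use every library. The steps were tested on simulated data. Per comparison, the 8 called members of smallest p are given by library, other called members by means, and uncalled ones by fold changes or ranges; up to 3 called genes of smallest p are named per pathway list. The members, lists and this rule were chosen with earlier results of these data known. Floors of 3 counts cover counting error only.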

Additional observations from a re-analysis of the deposited data

Results flagged for a closer look

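The response to bortezomib differed between knockout-labelled and WT HSCs for 8 members by the interaction term of edgeR's quasi-likelihood test. Over all genes tested, 4.71% were called negative and 4.35% positive. The interaction log2 fold changes, knockout-labelled minus WT, were -2.14 for Hspe1, -1.5 for Tomm5, -1.34 for Timm8b, -1.29 for Tomm40, -1.27 for Timm13, -1.18 for Timm23, -1.08 for Tomm20 and -1.06 for Timm50. With the Xist share as a covariate the values of these 8 genes lay between -1.62 for Hspe1 and -0.82 for Tomm20, with adjusted p-values between 0.0608 and 0.189, so that 0 were called. In that fit 1.71% of all genes tested were called. The Xist share did not overlap between the genotypes in DMSO, where sex and genotype cannot be told apart. Hspe1 and Tomm40 kept their calls in 19 of 20 alternatives, all but the Xist share covariate. Timm23 kept its call in 10, Tomm5 and Timm13 in 11, and Tomm20, Timm8b and Timm50 in 12 of the 20. Of the 8 calls, 0 held under every alternative.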

How the results depend on the processing

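In each comparison with calls the 8 called members of smallest p were followed, and none of them changed sign under any alternative. The sign of the other called members was not followed. The count of called members after bortezomib in WT HSCs was 15 to 27, against 20, under every alternative that kept all libraries or left out 3. Over all genes tested, 10.1% to 38.6% were called there, against 15.5%. Between genotypes under bortezomib the count was 28 to 33, against 29, with 21.9% to 46% of all genes called, against 32.4%. In the interaction (8 members, 9.05% of all genes) the count was 14 with DESeq2 (15.1%), 26 with limma voom and quality weights (30.1%) and 15 with no filter (9.28%). It was 0 with the Xist share as a covariate (1.71%), 26 without the 3 libraries apart (24.5%) and 14 with length and GC offsets (12.2%). After bortezomib in knockout-labelled HSCs (0 members, 3.63% of all genes) it was 3 with limma voom (9.77%), 1 with no filter (4.34%) and 7 without the 3 libraries apart (11.6%). Leaving out 1 library at a time gave 5 to 22 members after bortezomib in WT (3.47% to 16.4% of all genes) and 0 to 1 in knockout-labelled HSCs (1.07% to 6.16%). It gave 23 to 31 between genotypes under bortezomib (21.1% to 35.5%), 2 to 22 in the interaction (2.07% to 16.7%) and 0 to 0 in the 4 other comparisons (0% to 0.0432%). The cause of these changes was not tested. With the replicate number as a block the interaction was called for 13 members (11.7% of all genes tested). After bortezomib in WT, in knockout-labelled HSCs and between genotypes under bortezomib, 21, 0 and 30 members were called (18.8%, 4.83% and 35%). Same-numbered libraries had correlations of -0.09 to 0.17 in the 4 treatment comparisons and of -0.01 to 0.29 in the 3 reporter comparisons, not above 0.1 in every pair of either experiment, so the pairing was not taken as given. In the reporter experiment the Xist share nevertheless went with the replicate number, and with the block 0 members were called there (0% to 0.013% of all genes tested). Tomm6 and Tomm20l, with 376 and 167 counts over all libraries, gave standard errors of 0.70 to 2.14 on the log2 scale in the treatment comparisons, so low counts limit what can be said of them. Tomm6 also shared 84.2% of its exon bases with other genes, and its counts may lack reads on these bases.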
